A study of Homo sapiens with 4 samples.

Results

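The transcriptome of H2B-eGFP-retaining, slow-cycling MDA-MB-231 cells was set against that of Bulk cells, gene by gene. Genes were included when their mean over the 4 libraries of the series reached 1 CPM, the usual depth-scaled read count, which held for 14585 of the 58735 genes counted, 12480 of them protein coding. Each side is 1 library, so every interval given here covers counting error in the reads only and no difference has a replicate check. MDA-MB-231 is an established human triple-negative breast cancer line. It carried a doxycycline-inducible histone H2B-eGFP reporter (TetOn-H2BeGFP), and whether the transduced cells were 1 clone is not given in the sources used here.

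All 4 groups shared the same treatment. Doxycycline at 5 µg/ml was given for 3 days, Claret and Violet dyes were loaded, and the cells were chased for 12 days. The brightest 1% for H2B-eGFP formed the eGFP group, the brightest 1% for each dye formed the Claret and Violet groups, and Bulk was sorted with no fluorescence gate, so Bulk may itself hold some label-retaining cells. Groups follow the sample titles and the column names. The treatment field of each sample names a different sort from its title, and for the library titled H2B-eGFP it names Violet.

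A fluorescent histone that is no longer being made is diluted among daughter cells at each division, so cells that stay bright after a chase are taken to have divided little. Cells that leave the cycle stop transcribing the genes that E2F factors, and MuvB with B-MYB and FOXM1, drive in S phase and in G2/M. In G1 and G0, E2F sites and the cell-cycle homology region (CHR) bind repressive complexes, among them the MuvB-based complex DREAM. CCAAT boxes near them bind NF-Y.

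Libraries held 15508179 to 16976909 reads, 15868881 in eGFP and 16033922 in Bulk, and a count of 3 reads, the limit that 0 reads allow, equals 0.177 to 0.190 CPM. Mitochondrial genes held 5.09% of the reads in eGFP and 4.18% in Bulk. The mitochondrial ribosomal RNA MT-RNR2 had 107948 reads in eGFP, 109102 in Claret and 79177 in Violet against 20937 in Bulk, and the part of this shift in other results was not tested. The line's markers were present in all libraries: VIM had 12507 reads in Bulk and 17073 in eGFP, and EGFR had 12910 and 16359. Over the line's 13 markers the log2 ratio of eGFP to Bulk ran from -0.95 to 2.11, with a median of 0.11. Of these, 2 were called higher and none lower, beside 11.9% and 7.6% of all genes. Of 15 leukocyte, endothelial and fibroblast markers 4 passed the filter, with a summed level of 18.3 CPM in Bulk and 35.7 to 38.4 CPM in the sorted libraries. CD3E, LUM and FAP had 0 reads in each library, and PTPRC and CDH5 had at most 2. Of the 4, ACTA2, PDGFRB and VWF were called higher in eGFP and PECAM1 was not called. Of all genes 11.9% were called higher, and of those with a mean under 2 CPM 26.9% were. In Claret 2 of the 4 were called higher than Bulk, and in Violet 3. The part of these markers in other results was not tested. Of 13 luminal breast markers 9 passed, and ESR1, PGR and CDH1 did not. Of these 9, 2 were called higher in eGFP than in Bulk and 1 lower, beside 11.9% and 7.6% of all genes. Their median log2 ratio was -0.04, with a range from -2.16 to 3.07.

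Promoters of 6 genes that were lower in eGFP than in Bulk, Claret and Violet are shown, because they hold the elements named above. Each is the 250 bases before the RefSeq start in GRCh38.p14, on the gene's strand. The 50 bases after that start lay unbroken in a GENCODE 29 transcript of the gene for 73.14% of all matched promoters and for 2 of the 6 shown, so the starts of the other 4 were not matched in this way. Capitals mark E2F matches, CHR matches and CCAAT matches on either strand. An E2F match is the word TTGGCGC, the word TTCCCGC, the word TTCGCGC or the word TTGCCGC. A CHR match is the word TTTGAA or the word TTCGAA. In MKI67 the second CHR match and a CCAAT match overlap.
CDC25A, chr3:48188418-48188667, minus strand: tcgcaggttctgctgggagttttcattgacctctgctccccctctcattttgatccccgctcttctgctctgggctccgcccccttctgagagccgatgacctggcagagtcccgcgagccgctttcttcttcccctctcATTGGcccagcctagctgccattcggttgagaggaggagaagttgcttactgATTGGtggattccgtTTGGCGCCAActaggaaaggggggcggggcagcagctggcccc
E2F2, chr1:23531234-23531483, minus strand: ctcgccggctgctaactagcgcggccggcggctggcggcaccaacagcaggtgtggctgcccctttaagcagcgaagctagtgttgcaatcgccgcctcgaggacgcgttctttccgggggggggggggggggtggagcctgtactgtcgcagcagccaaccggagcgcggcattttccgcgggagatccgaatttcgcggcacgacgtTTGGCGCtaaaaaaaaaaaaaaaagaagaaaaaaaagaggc
CDK1, chr10:60778081-60778330, plus strand: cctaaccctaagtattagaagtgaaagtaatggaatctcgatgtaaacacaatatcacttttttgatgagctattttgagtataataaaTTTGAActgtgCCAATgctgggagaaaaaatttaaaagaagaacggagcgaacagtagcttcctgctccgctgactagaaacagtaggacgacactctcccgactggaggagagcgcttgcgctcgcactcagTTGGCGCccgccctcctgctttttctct
PIF1, chr15:64825648-64825897, minus strand: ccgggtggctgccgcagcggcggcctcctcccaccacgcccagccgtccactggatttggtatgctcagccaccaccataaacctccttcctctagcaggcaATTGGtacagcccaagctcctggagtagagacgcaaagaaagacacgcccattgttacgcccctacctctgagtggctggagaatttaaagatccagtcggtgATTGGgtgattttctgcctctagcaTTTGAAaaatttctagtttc
KIF11, chr10:92592880-92593129, plus strand: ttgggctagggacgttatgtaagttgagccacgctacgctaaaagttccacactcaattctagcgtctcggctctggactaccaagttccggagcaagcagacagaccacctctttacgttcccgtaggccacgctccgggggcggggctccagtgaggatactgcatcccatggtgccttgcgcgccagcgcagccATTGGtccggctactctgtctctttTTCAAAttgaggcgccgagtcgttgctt
MKI67, chr10:128126424-128126673, minus strand: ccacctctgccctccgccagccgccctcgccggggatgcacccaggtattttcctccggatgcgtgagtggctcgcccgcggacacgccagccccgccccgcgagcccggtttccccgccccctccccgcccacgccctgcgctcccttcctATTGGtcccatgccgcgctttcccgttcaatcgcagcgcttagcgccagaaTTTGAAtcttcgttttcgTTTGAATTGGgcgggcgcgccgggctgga

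Genes of DNA replication and mitosis were among the lowest in eGFP relative to Bulk. Among the highest were targets of the amino acid stress factor ATF4, the metabolic regulator TXNIP and the immediate-early gene EGR1. A gene was called when the two-sided exact binomial test on its reads in the pair of libraries gave an adjusted p under 0.05 (Benjamini-Hochberg over the 14585 genes) and the log2 ratio reached 1 in size. Called higher were 1735 genes (11.9%) and called lower 1108 (7.6%). The test compares these libraries and not the conditions. In bulk RNA, fewer cells of a kind and less RNA per cell cannot be told apart. The called share depended on level: 26.9% of genes with a mean under 2 CPM were called higher, against 6.32% of those over 100 CPM. Of lincRNAs 28.5% were called higher, and of protein-coding genes 10.4%. Median GC content was 53.9% in the genes called higher, 46.4% in those called lower and 48.3% in all genes kept, and after a lowess correction for GC content 1583 genes were called higher and 1168 lower. With a coefficient of variation of 0.2 assumed between cultures the counts were 1047 and 686, and with groups from the treatment field, which sets the library titled Claret against that titled Violet, 33 and 82.

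**Figure D1:**
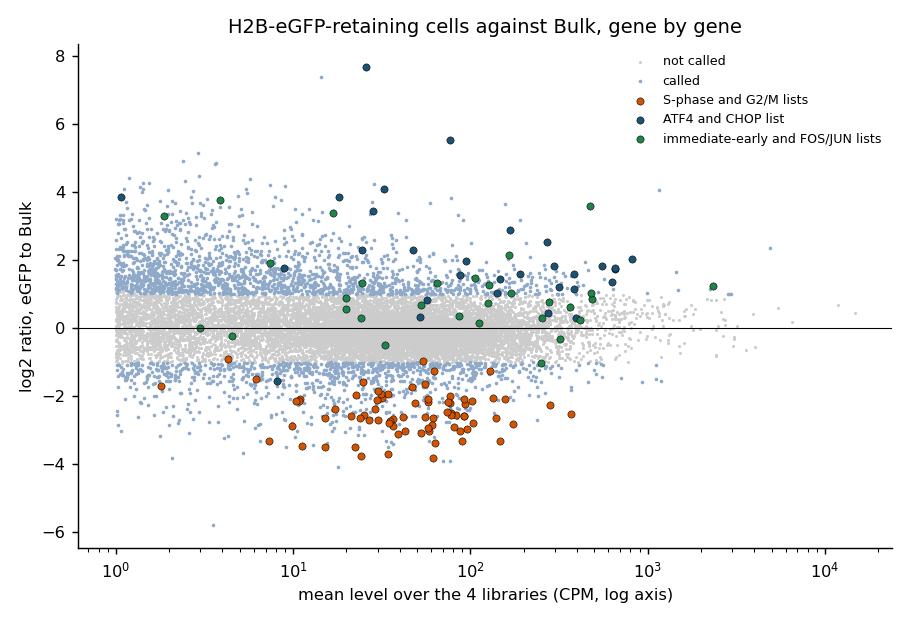
Log2 ratio of eGFP to Bulk (vertical axis) against the mean level over the 4 libraries (CPM, log axis), 1 point for each of the 14585 genes. Blue-grey points are genes called by the test on reads, grey points are not called, and larger points are members of the lists named in the key. The S-phase and G2/M members lie below 0 and all but 5 of the 30 ATF4 and CHOP members are called higher.

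Of 37 S-phase and DNA replication genes, 35 were called lower in eGFP than in Bulk, where 7.6% of all genes were. Their median log2 ratio to Bulk was -2.59, beside -0.01 over all genes kept. The same median was -2.18 in Claret and -2.26 in Violet, against the same Bulk library, where 6.67% and 7.01% of all genes were called lower. The 2 that were not called were SLBP, which binds histone mRNA, at -0.96, and CCNE1, cyclin E1, at -0.89. Directly against Claret the median log2 ratio of the list was -0.27 and 34 of 37 genes lay below 0, where 50.45% of all genes and 80.51% of those called lower than Bulk did. Against Violet it was -0.10, with 28 of 37 below 0, where 48.67% of all genes and 73.19% of those called lower did.

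RRM2, a subunit of ribonucleotide reductase, had 3007 reads in Bulk and 213 in eGFP, beside 385 in Claret and 310 in Violet. Its log2 ratio of eGFP to Bulk was -3.82 (95% interval -4.04 to -3.63). CDC45, part of the replicative helicase (chromosome 22, 19479459 to 19520612, GRCh38), had 83 reads in eGFP against 1129 in Bulk, with 165 in Claret and 154 in Violet. Its log2 ratio was -3.75 (-4.12 to -3.45) to Bulk, -0.88 (-1.29 to -0.51) to Claret and -0.88 (-1.30 to -0.50) to Violet. In these 2 genes eGFP was the lowest library by at least 0.5 on the log2 scale. The checkpoint adaptor CLSPN had 133 reads in eGFP, 172 in Claret and 159 in Violet against 1726 in Bulk, and the intervals of its eGFP ratios to Claret and to Violet both included 0. The repressor E2F8 had 766 reads in Bulk and 67 in eGFP, beside 71 in Claret and 55 in Violet, so eGFP was not its lowest library. The protease gene FAM111B had 55 reads in eGFP against 962 in Bulk, with 77 in Claret and 46 in Violet.

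All 38 G2/M and mitosis genes were called lower in eGFP than in Bulk, where 7.6% of all genes were. Their median log2 ratio to Bulk was -2.54, with -2.24 in Claret and -2.17 in Violet. Directly against Claret the list's median was -0.32, with 37 of 38 genes below 0, and against Violet it was -0.27, with 36 of 38 below 0. Their summed level was 1188 CPM in eGFP, 1465 in Claret and 1477 in Violet against 6726 in Bulk. For 24 of the 38 genes (63.2%) the intervals of the eGFP ratios to Claret and to Violet both lay below 0, whatever the size of the gap. The same held for 4.75% of all genes kept and for 17.51% of the 1108 genes called lower than Bulk. In the S-phase list it held for 5 of 37 (13.5%), no larger a share than among all genes called lower, and the difference between these lists was not tested. Median reads in Claret were 496.5 in the G2/M list, 360 in the S-phase list and 247.5 in the genes called lower, and the part of depth in these shares was not tested.

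BIRC5, the survivin subunit of the chromosomal passenger complex, had 272 reads in eGFP, 478 in Claret and 410 in Violet against 2841 in Bulk. The log2 ratio was -3.39 (-3.58 to -3.22) to Bulk, -0.71 (-0.94 to -0.50) to Claret and -0.60 (-0.83 to -0.37) to Violet. The proliferation marker MKI67 had 6778 reads in Bulk and 689 in eGFP, beside 995 in Claret and 915 in Violet, and its log2 ratio to Claret was -0.43 (-0.58 to -0.29). FOXM1, the activator of G2/M genes, had 418 reads in eGFP against 4159 in Bulk, with 571 in Claret and 542 in Violet. TOP2A, which untangles replicated DNA, had 2487 reads in eGFP, 3399 in Claret and 3330 in Violet against 14220 in Bulk. In these 4 genes eGFP held the fewest reads. The spindle genes NEK2 and HMMR were lower in eGFP than in Claret and Violet by 0.51 or more, with 180 and 77 eGFP reads. KIF20A, a kinesin of cytokinesis, had 2418 reads in Bulk and 287 in eGFP, beside 329 in Claret and 326 in Violet, and the interval of its ratio to Claret included 0.

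Cell-cycle genes outside these lists are given as values. The naming rule selected MYBL2, ZWINT and E2F2, and CDC25A and PIF1 were chosen after their values were seen. MYBL2, the B-MYB factor (chromosome 20, 43667019 to 43716496), had 234 reads in eGFP against 3494 in Bulk, with 393 in Claret and 342 in Violet. Its log2 ratio was -3.90 (-4.11 to -3.72) to Bulk and -0.65 (-0.89 to -0.42) to Claret. ZWINT, a kinetochore protein, had 260 reads in eGFP, 429 in Claret and 321 in Violet against 3869 in Bulk. CDC25A, a phosphatase that activates CDKs, had 712 reads in Bulk and 68 in eGFP, beside 111 in Claret and 100 in Violet. PIF1, a DNA helicase, had 157 reads in eGFP against 1600 in Bulk, with 273 in Claret and 231 in Violet. E2F2, an activating E2F, had 237 reads in Bulk and 17 in eGFP, beside 44 in Claret and 34 in Violet. Its 17 eGFP reads gave a wide interval for the log2 ratio to Violet, -1.94 to -0.13.

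**Figure D2:**
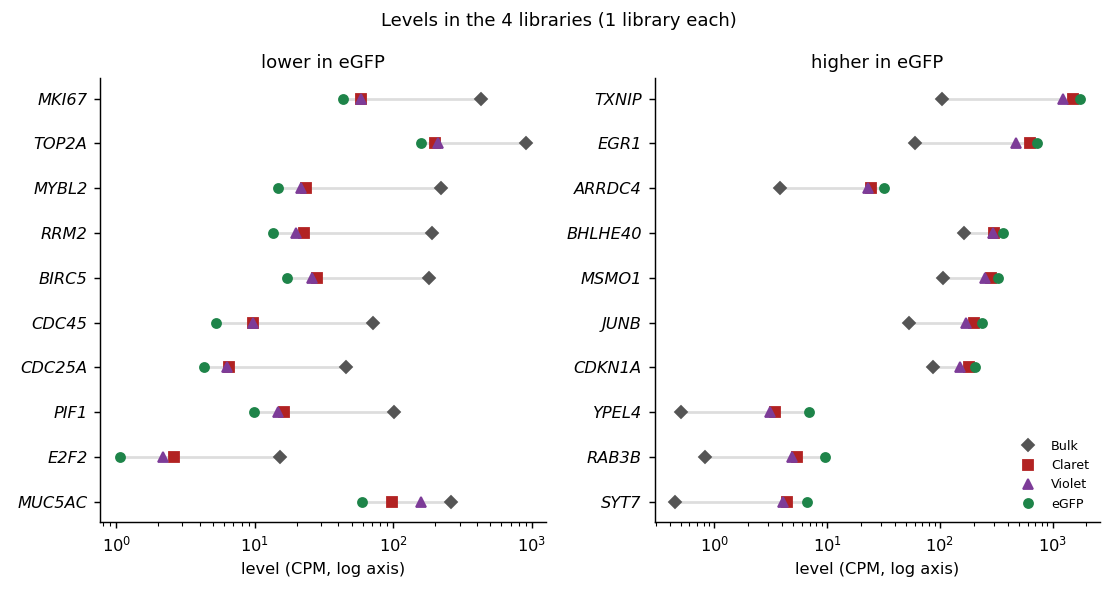
Level (CPM, log axis) of 10 genes lower and 10 genes higher in eGFP than in Bulk, with 1 point for each of the 4 libraries. In each gene of the left panel eGFP is the lowest point, and in each gene of the right panel it is the highest. All were drawn from genes whose eGFP level lay beyond both Claret and Violet, so this order was fixed by the choice. Genes such as E2F8, CDKN1C and YPEL3, where eGFP is not the extreme library, are not drawn.

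Promoters could be matched to 10371 of the 14585 genes. A CHR match lay in the 250 bases before the start in 9.3% of them, in 17.34% of those of genes called lower, and in 18 of 32 G2/M genes (56.25%). An E2F match lay in 17.61% of all matched promoters, in 26.51% of those of genes called lower and in 15 of 30 S-phase genes (50%). A CCAAT match lay in 34.9% of all matched promoters, in 47.24% of those called lower and in 25 of 32 G2/M genes (78.12%). In genes called higher the shares were 8.27% for CHR, 11.79% for E2F and 30.04% for CCAAT. Lists with a median above 0 also held such matches. In the immediate-early list CHR lay in 4 of 16 promoters (25%), E2F in 6.25% and CCAAT in 43.75%. In the ATF4 and CHOP list E2F lay in 5 of 20 (25%), CCAAT in 55% and CHR in 5%. For the genes lower in eGFP than in Bulk, Claret and Violet by any gap, the shares were 26.06% for CHR, 27.46% for E2F and 54.93% for CCAAT over 142 promoters. With a gap of at least 0.5 they were 6.25% (2 of 32 promoters), 28.12% and 56.25%, so the CHR share then lay below that of all matched promoters. Over all 27305 promoters of the RefSeq table they were 14.59%, 11.02% and 33.04%. Of the promoters shown above, CDC25A has 2 E2F matches that overlap, E2F2 has 1, PIF1 and KIF11 have 1 CHR match each with a CCAAT match upstream of it, and CDK1 has 1 match of each kind. A match is a run of letters and not a measured binding site.

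Genes of replication-coupled histones were hardly counted, and 6 of 31 passed the filter, with a median log2 ratio of 0.07. Among genes for histone H2B, the protein fused to eGFP in the reporter, HIST1H2BJ had 248 reads in eGFP against 182 in Bulk, with 126 in Claret and 315 in Violet. HIST1H2BK had 67 reads in eGFP, 86 in Claret and 78 in Violet against 177 in Bulk and was called lower. HIST2H2BE had 4 reads in Bulk and 23 in eGFP, beside 37 in Claret and 21 in Violet and was called higher. These genes did not move in 1 direction. Whether reads were divided among H2B genes of similar sequence was not tested, and the reporter transcript was not analysed here. Of 9 replacement histones 4 were called lower, beside 7.6% of all genes. H2AFX, the H2A.X variant, had 725 reads in eGFP against 3832 in Bulk, with 896 in Claret and 815 in Violet.

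Among 5 CDK inhibitors kept, 2 were called higher and 1 lower, beside 11.9% and 7.6% of all genes. CDKN1A, the p21 inhibitor, had 3233 reads in eGFP, 3085 in Claret and 2395 in Violet against 1375 in Bulk. Its log2 ratio was 1.22 (1.13 to 1.31) to Bulk, 0.16 to Claret and 0.43 to Violet. CDKN1C, the p57 inhibitor, had 133 reads in Bulk and 326 in eGFP, beside 392 in Claret and 328 in Violet, so eGFP was not its highest library. CDKN2C, the p18 inhibitor, had 277 reads in eGFP against 1314 in Bulk, with 399 in Claret and 365 in Violet and was called lower. CDKN1B, the p27 inhibitor, had a log2 ratio of 0.11 (-0.01 to 0.23). CDKN2A and CDKN2B did not pass the filter.

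Targets of ATF4 and CHOP, which raise amino acid synthesis and transport under stress, made up the list with the highest median against Bulk. Of 30 genes 25 were called higher, where 11.9% of all genes were, and the median was 1.78 in eGFP. In Claret, with 11.2% of all genes called higher, it was 1.85, and in Violet, with 11.3%, it was 1.70. INHBE, an activin subunit, had 615 reads in eGFP, 620 in Claret and 431 in Violet against 1 in Bulk, which gave a log2 ratio of 7.69 (6.77 to 14.56). CHAC1, which degrades glutathione, had 1652 reads in eGFP, 1810 in Claret and 1488 in Violet against 33 in Bulk. ATF5 was called lower, with 263 reads in Bulk and 89 in eGFP. Against Claret the list's median was -0.04, and VEGFA, the angiogenic growth factor, was the only member above both other sorted libraries with both intervals clear of 0. It had 3990 reads in Bulk and 13419 in eGFP, beside 12445 in Claret and 12575 in Violet. Against Violet the list's median was 0.08. Outside the list, the lactate transporter SLC16A1 had 331 reads in eGFP against 0 in Bulk, with 372 in Claret and 238 in Violet, which makes eGFP at least 109.5-fold higher than the 3 reads allowed in Bulk. The netrin receptor UNC5B had 588 reads in eGFP against 29 in Bulk, and the gut hormone gene PYY had 83 against 1. IL21R, a cytokine receptor, had 68 reads in eGFP and 0 in Bulk, at least 22.5-fold higher. UNC5B, PYY and IL21R did not lie above both Claret and Violet by 0.5 or more on the log2 scale with both intervals clear of 0. MOV10L1 had 56 and 0, at least 18.5-fold higher, and with 108 reads in Claret it was not highest in eGFP.

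Of 18 endoplasmic reticulum chaperones and unfolded-protein response genes 4 were called higher, beside 11.9% of all genes, and none lower, with a median of 0.06. ERN1, the IRE1 sensor, had 1251 reads in eGFP, 1306 in Claret and 1176 in Violet against 270 in Bulk. Cytosolic chaperones had a median of -0.86, and 4 of 14 were called lower, beside 7.6% of all genes. In Claret the median was -0.81 with 3 called lower, and in Violet it was -1.01 with 7 called lower, where 6.67% and 7.01% of all genes were. HSP90AA1 had 29299 reads in Bulk and 9803 in eGFP, beside 10973 in Claret and 9308 in Violet. Among 23 genes of hypoxia and glycolysis, with a median of -0.42, none was called higher and 1 lower, beside 11.9% and 7.6% of all genes. That 1 was LDHA, which makes lactate, with 33794 reads in Bulk and 12037 in eGFP. The 20 interferon-stimulated genes had a median of 0.00, with 1 called higher (ISG20) and 1 lower (OAS3), beside 11.9% and 7.6% of all genes. The 32 cytosolic ribosomal protein genes had a median of 0.42, beside medians of 0.42 in Claret and 0.28 in Violet. Among them 1 was called higher and none lower, beside 11.9% and 7.6% of all genes. All 32 lay above Violet, at a median log2 ratio of 0.14, where 51.29% of all genes did. Directly against Claret their median was -0.03 and 22 of 32 lay below 0, where 50.45% of all genes did. None of the 13 mitochondrially encoded protein genes was called, beside 11.9% of all genes called higher and 7.6% lower, and their median was -0.25.

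Of 23 immediate-early and CREB target genes 11 were called higher, where 11.9% of all genes were, and none lower, with a median of 0.87 in eGFP, 0.91 in Claret and 0.82 in Violet. EGR1, a factor induced within minutes of a stimulus (chromosome 5, 138465490 to 138469315), had 11526 reads in eGFP against 947 in Bulk, with 10649 in Claret and 7478 in Violet. On the log2 scale EGR1 stood at a ratio of 3.59 (3.50 to 3.69) to Bulk, 0.21 (0.17 to 0.25) to Claret and 0.62 (0.57 to 0.66) to Violet. Of the 11 called higher, EGR1, CYR61, IER2 and SIK1 lay above Claret and Violet with both intervals clear of 0. The same held for 11.87% of all genes called higher than Bulk. Members not called against Bulk were left out of this count. SIK1, a kinase induced by cyclic AMP, had 87 reads in eGFP, 13 in Claret and 13 in Violet against 7 in Bulk, and 87.36% of its transcript sequence in stretches of 31 bases also occurs in another gene, so its reads may have been divided between copies.

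The 7 FOS and JUN genes had a median of 0.68 in eGFP, 0.50 in Claret and 0.14 in Violet. JUNB had 831 reads in Bulk and 3740 in eGFP, beside 3442 in Claret and 2713 in Violet, and its log2 ratio to Bulk was 2.16 (2.05 to 2.27). JUND was the other one called higher, at 1.27. FOS had 1052 reads in eGFP against 653 in Bulk, with 994 in Claret and 716 in Violet, which gave 0.68 and no call, and JUN stood at 0.62. FOSL2 was called lower, with 3029 reads in eGFP, 3429 in Claret and 3520 in Violet against 6155 in Bulk. Of the 7 members 2 were thus called higher and 1 lower, beside 11.9% and 7.6% of all genes, so they differed in direction.

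Of 21 genes linked to quiescence, FOXO factors or mTORC1 restraint, 8 were called higher, beside 11.9% of all genes, and none lower, with a median of 0.70. TXNIP, which restrains glucose uptake (chromosome 1, 145992435 to 145996600), had 1657 reads in Bulk and 27931 in eGFP, beside 26000 in Claret and 19542 in Violet. The log2 ratio of TXNIP was 4.06 (3.99 to 4.14) to Bulk, 0.20 (0.17 to 0.22) to Claret and 0.51 (0.48 to 0.53) to Violet. Its relative ARRDC4 had 502 reads in eGFP against 60 in Bulk, with 418 in Claret and 364 in Violet. eGFP was the highest library for both. YPEL3 had 761 reads in eGFP, 792 in Claret and 794 in Violet against 227 in Bulk, so it was not highest in eGFP. Of 24 lysosome and autophagy genes 7 were called higher, beside 11.9% of all genes, with a median of 0.50. GABARAPL1, an autophagosome protein, had 347 reads in Bulk and 1211 in eGFP, beside 1212 in Claret and 1034 in Violet.

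Of 20 dormancy-associated genes kept 2 (10%) were called higher and 3 (15%) lower, beside 11.9% and 7.6% of all genes, and the list's median was -0.13. BHLHE40, a clock-linked repressor, had 5801 reads in eGFP against 2581 in Bulk, with 5110 in Claret and 4675 in Violet and was highest in eGFP. RBL2, the p130 subunit of DREAM, had 1251 reads in eGFP, 1299 in Claret and 1290 in Violet against 542 in Bulk. The orphan receptor NR2F1 had 1699 reads in Bulk and 1351 in eGFP and was not called. The matrix protein THBS1, the protease inhibitor TIMP3 and HIST1H2BK were the 3 called lower.

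Of 31 genes of extracellular matrix and integrins 8 were called higher and 2 lower, beside 11.9% and 7.6% of all genes, with a median of 0.46. MMP1, a collagenase, had 6 reads in Bulk and 118 in eGFP, beside 84 in Claret and 109 in Violet. COL6A2, a chain of collagen VI, had 6102 reads in eGFP against 2134 in Bulk, with 5593 in Claret and 5295 in Violet. ITGB4, the integrin of hemidesmosomes, had 5288 reads in eGFP, 7086 in Claret and 8020 in Violet against 2327 in Bulk, and eGFP was the lowest of the sorted libraries. Of 20 TGF-beta and activin targets 3 (15%) were called higher and 1 (5%) lower, beside 11.9% and 7.6% of all genes, with a median of 0.03. FSTL3, which binds and blocks activin, had 367 reads in Bulk and 802 in eGFP, beside 721 in Claret and 580 in Violet. ID3, an inhibitor of helix-loop-helix factors, was the one called lower, with 685 reads in eGFP, 698 in Claret and 565 in Violet against 1653 in Bulk.

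Of 21 NF-kB targets and cytokines 5 were called higher, beside 11.9% of all genes, with a median of 0.57 in eGFP, 0.27 in Claret and 0.51 in Violet. CXCL8, the neutrophil attractant, had 1153 reads in eGFP against 265 in Bulk, with 964 in Claret and 928 in Violet. CCL2, the monocyte attractant, was called lower, with 511 reads in eGFP, 389 in Claret and 442 in Violet against 1779 in Bulk. Of 20 cholesterol synthesis genes 1 was called higher and none lower, beside 11.9% and 7.6% of all genes, and the median was 0.35. That 1 was MSMO1, with 1670 reads in Bulk and 5227 in eGFP, beside 4814 in Claret and 3979 in Violet. Directly against Violet 19 of these 20 genes lay above 0, and against Claret 16 did, where 51.29% and 49.51% of all genes did.

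**Figure D3:**
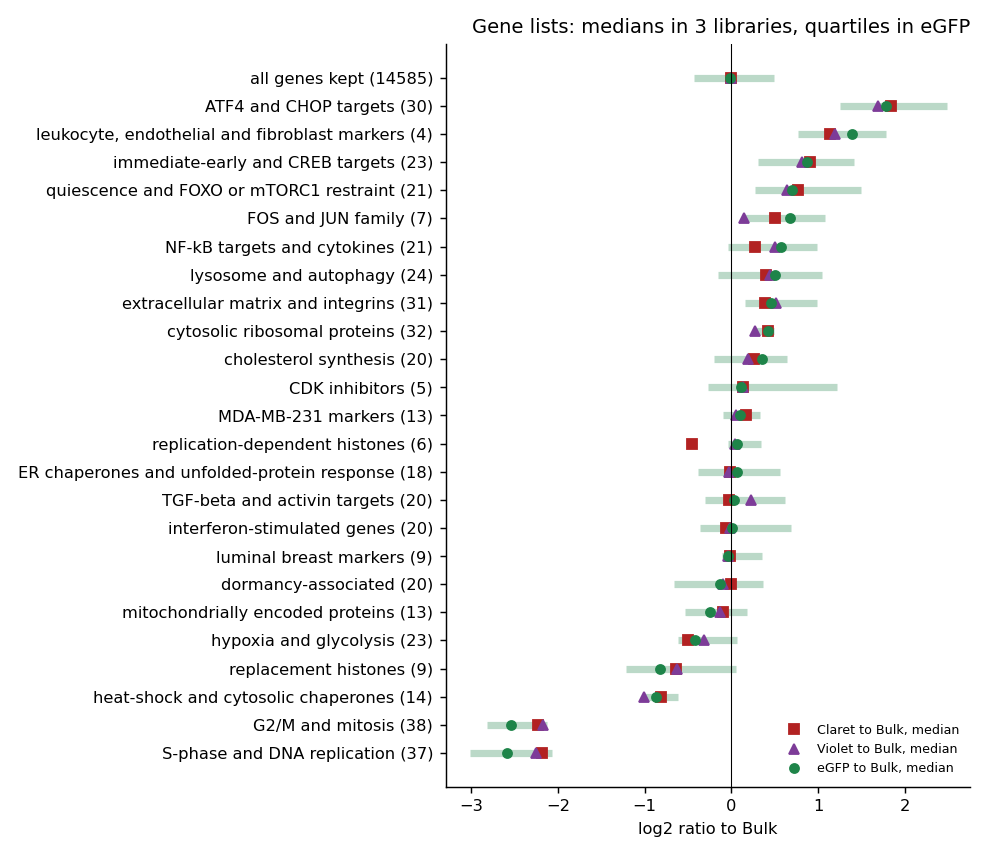
Median log2 ratio to Bulk of gene lists in the eGFP (circles), Claret (squares) and Violet (triangles) libraries, with the number of genes kept in parentheses and bars for the quartiles over genes in eGFP. The S-phase and G2/M medians lie near -2.5 in eGFP and to the left of both dye libraries. All 3 ratios share the same Bulk library.

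Between the sorted libraries few genes differed by a factor of 2. Against Claret 59 genes (0.405%) were called higher in eGFP and 45 (0.309%) lower, and against Violet 42 (0.288%) higher and 94 (0.644%) lower. Genes called against Bulk whose eGFP level also lay beyond Claret and beyond Violet, by at least 0.5 on the log2 scale with both 95% intervals clear of 0, numbered 50 higher (0.343%) and 54 lower (0.37%). With any gap in place of 0.5, a description added after the data were seen, there were 206 higher (1.41%) and 194 lower (1.33%). Counted for the other libraries with a gap of 0.5, Claret had 22 higher and 21 lower genes, and Violet 42 and 20. With any gap Claret had 67 and 30, and Violet 99 and 98. With a coefficient of variation of 0.2 assumed, 7 genes in all were called against Claret and 5 against Violet, and a filter at a mean of 10 CPM left 4 higher and 18 lower genes beyond both by 0.5. These members were chosen by the ratios, so their ratios are descriptions. BBC3, the pro-apoptotic protein PUMA, had 362 reads in eGFP against 53 in Bulk, with 266 in Claret and 254 in Violet. At the edges of the gap, BBC3 lay just inside at 0.50 and GGT7 just outside at 0.49 among higher genes, and HMMR at -0.51 and CHAF1B at -0.50 among lower ones. At the edge of the level filter, FAAH2 had a mean of 1.00 CPM and was kept, and PIH1D2 with 7 reads in Bulk and 18 in eGFP was not.

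**Figure D4:**
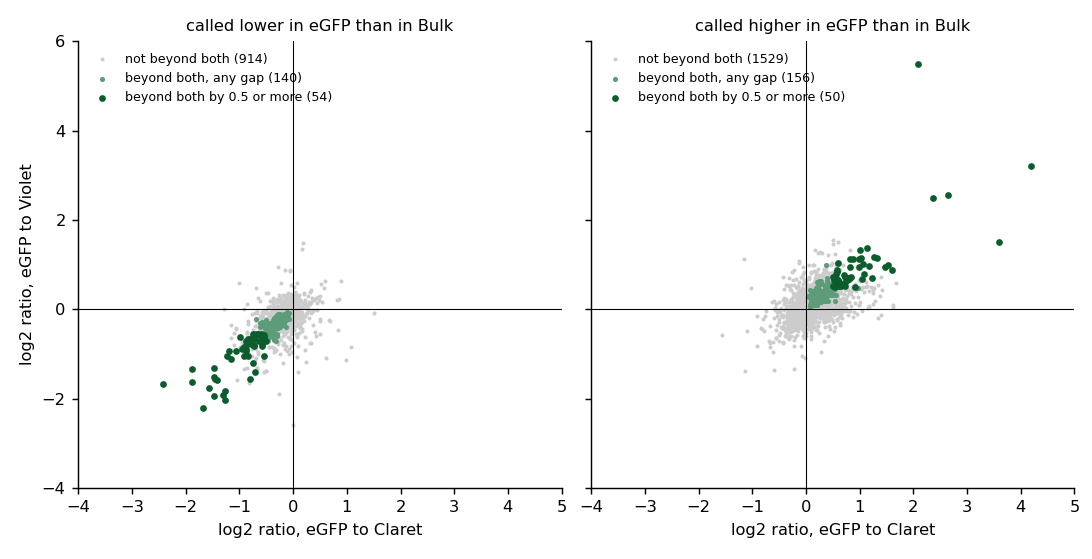
Log2 ratio of eGFP to Claret (horizontal) and to Violet (vertical) for the 1108 genes called lower than Bulk (left) and the 1735 called higher (right). Dark points are the 54 and 50 genes beyond both libraries by 0.5 or more with intervals clear of 0, and light green points those beyond both by a smaller gap.

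The 50 higher genes were mostly scarce in Bulk, with a median of 16 Bulk reads beside 407 over all genes kept. Protein-coding genes made up 54% of them, beside 85.57% of all genes kept, and 30% shared most of their sequence with another gene, beside 6.23%. YPEL4 had 110 reads in eGFP, 58 in Claret and 49 in Violet against 8 in Bulk, a log2 ratio of 3.48 (2.74 to 5.02) to Bulk. RAB3B, a small GTPase of secretory vesicles, had 13 reads in Bulk and 151 in eGFP, beside 91 in Claret and 77 in Violet. SYT7, a calcium sensor of vesicle fusion chosen after its values were seen, had 105 reads in eGFP against 7 in Bulk, with 75 in Claret and 64 in Violet. Each had most reads in eGFP and fewest in Bulk. SGK2, a kinase, had 125 reads in eGFP, 76 in Claret and 77 in Violet against 19 in Bulk, and CA14, a carbonic anhydrase, had 71 in eGFP, 35 in Claret, 34 in Violet and 11 in Bulk. C1QL3 had 25 reads in Bulk and 60 in eGFP, beside 26 in Claret and 36 in Violet, and LRRC46 had 50 in eGFP, 18 in Claret, 25 in Violet and 15 in Bulk, so these stood near Bulk in Claret. STRC, chosen after its values were seen, had 40 reads in eGFP against 0 in Bulk, with 20 in Claret and 17 in Violet. This makes eGFP at least 13.2-fold higher than the 3 reads allowed in Bulk. In STRC 59.19% of the 31-base stretches also occur in another gene, so its reads may have been divided between copies.

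Among more abundant genes higher in eGFP by any gap, HLA-B, a class I antigen-presenting molecule chosen after its values were seen, had 6237 reads in eGFP, 4929 in Claret and 4647 in Violet against 2461 in Bulk. Its log2 ratio was 1.33 to Bulk and 0.43 (0.38 to 0.49) to Claret. HLA genes share sequence, so its reads may have been split among them.

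The 54 lower genes held 5 members of the S-phase and G2/M lists (9.26%), beside 6.59% of all genes called lower than Bulk, and with any gap 29 of 194 (14.95%). Genes with no such role were also present. MUC5AC, a secreted mucin chosen after its values were seen, had 4077 reads in Bulk and 944 in eGFP, beside 1648 in Claret and 2475 in Violet. FAM81A had 30 reads in eGFP against 240 in Bulk, with 64 in Claret and 57 in Violet, and MNS1, a protein of motile cilia, had 24 in eGFP, 49 in Claret, 43 in Violet and 125 in Bulk. RCBTB2 had 15 reads in eGFP, 48 in Claret and 40 in Violet against 113 in Bulk. The chemokine CCL28 had 62 reads in Bulk and 19 in eGFP, beside 48 in Claret and 43 in Violet. SHISA2 had 9 reads in eGFP against 33 in Bulk, with 41 in Claret and 32 in Violet, so that only eGFP stood low. These last 3 rest on fewer than 20 eGFP reads each.

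**Figure D5:**
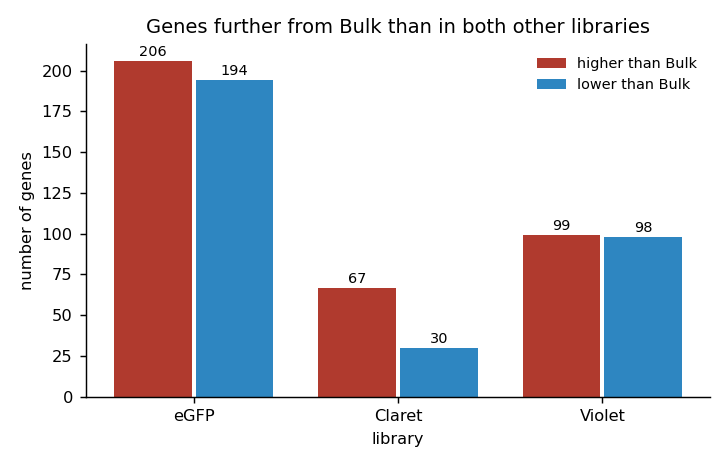
Number of genes called against Bulk that lay further from Bulk in one sorted library than in both others, by any gap with intervals clear of 0, for each library (bars start at 0). The eGFP library has 206 higher and 194 lower genes.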

How the data were processed

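Reads were aligned with HISAT2 2.0.5 and counted with featureCounts 1.5.0-p3, per the submitters' processing notes. The deposited table holds raw read counts per gene, per the file headers and the values, and start and end coincide with GENCODE 29 (GRCh38) for all 58735 genes. How strand and multiply matching reads were treated is not given in the sources used here, so antisense and near-identical genes are uncertain. The authors also deposited FPKM values, which follow from the same counts and served 1 alternative, log2(FPKM + 1). Of the gene names, 27 had been turned into dates and were restored from their identifiers.

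Library sizes were scaled by TMM (edgeR 4.0.16, R 4.3.3), and a prior count of 2 was added before log2 ratios of CPM were taken. Single libraries leave edgeR's quasi-likelihood test without residual degrees of freedom. Reads of 2 libraries were therefore compared gene by gene with an exact binomial test, two-sided and conditional on their sum, and p-values were adjusted by Benjamini-Hochberg over 14585 genes. Intervals are 95% Clopper-Pearson intervals, and the floor is 3 reads. The scripts were tested on simulated data. Alternatives were DESeq2 1.42.0 size factors, total counts, other prior counts, filters, gaps and bounds, GC correction, an assumed coefficient of variation of 0.2, and the treatment field.

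Named genes follow a rule: the 8 higher and 8 lower protein-coding genes with the bound farthest from 0, the genes with the widest gaps beyond Claret and Violet, in each of 25 lists up to 4 with the largest ratios and up to 2 with the widest gaps, and MKI67, TOP2A, the FOS and JUN genes, CDK inhibitors and H2B genes. Where the text names another gene it says that the choice followed its values. Exceptions are CDK1 and KIF11, chosen for their promoters, and genes given as members of a described list. MT-RNR2, given with the mitochondrial reads, is also outside the rule. So are GGT7, CHAF1B, FAAH2 and PIH1D2, given at the edges of the gap and of the level filter. Members and lists were chosen with earlier results of these data known. Some of the genes the rule selects, and 1 list, are not reported here. All listed symbols were matched, and 59 of 523 did not pass the filter.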

Additional observations from a re-analysis of the deposited data

Results flagged for a closer look

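The eGFP library was called higher than all of the other 3 libraries, or lower than all of them, in 19 genes, and 10 of these share most of their sequence with another gene. Of those that the naming rule selects, 8 are given here by the eGFP log2 ratio, to Claret or to Violet, that is nearer to 0. Higher in eGFP were SERF1B (3.20), SIK1 (2.56), MAGEA2B (2.36), XAGE1B (2.09) and CA14 (1.01). SERF1B had 256 reads in eGFP, 13 in Claret and 26 in Violet against 52 in Bulk, and XAGE1B had 493 in eGFP, 122 in Claret, 9 in Violet and 93 in Bulk. SERF1B, SIK1, MAGEA2B and XAGE1B share 76.25% to 98.24% of their 31-base stretches with other genes. Lower in eGFP were SHISA2 (-1.64), RCBTB2 (-1.31) and CCL28 (-1.11). The tests compare reads of single libraries.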

How the results depend on the processing

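No paired analysis was possible because each group holds 1 library, and for the same reason no library could be left out. In the titled grouping, 1735 genes were called higher and 1108 lower than Bulk, 104 called against Claret, 136 against Violet, and 50 higher and 54 lower beyond both. DESeq2 size factors, total counts, GC correction and prior counts of 0.5 and 5 kept each of these within 1.5 times. A 10 CPM filter gave 685 higher, 8 against Claret, 7 against Violet, and 4 and 18 beyond both. With no filter 93 higher genes lay beyond both. On log2(FPKM + 1), with no test, there were 633 higher, 725 lower, 24, 22, 18 and 11. With an assumed coefficient of variation of 0.2 there were 1047 higher, 686 lower, 7 against Claret and 5 against Violet. With the interval bound itself at least 1 there were 903 higher, 653 lower, 20, 15 and, beyond both, 35 lower. A gap of 0.3 gave 87 higher and 112 lower, a gap of 1 gave 11 and 15, and any gap 206 and 194. Of the 50 higher, 18 were protein coding without shared sequence. By the treatment field, which pairs the libraries titled Claret and Violet, 33 were higher, 82 lower, 2612 called against the library that field names Claret, and 9 and 14 lay beyond both. Of the named genes' values under the other settings run for them, which leave out the treatment field and the changed gaps, 1512 kept their call, 92 lost it, 3 gained it and 0 changed sign. With 1 library a group, depth limits the genes with few reads, and the spread between cultures is unknown.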
